A study of Arabidopsis thaliana with 7 samples.

Results

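EXPA7 (AT1G12560) and EXPA18 (AT1G62980) are a pair of alpha-expansin genes of Arabidopsis thaliana. They were selected by gene symbol in the annotation of the array's probe sets, with earlier results of these data known. They are 2 of 13356 genes that had a probe set of their own. EXPA7 was read by probe set 259525_at and EXPA18 by probe set 261099_at. Their levels were followed over all 7 arrays of a study of the nitrate response pathway in roots.

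Expansins are cell wall proteins that loosen the wall of growing plant cells in acid conditions, without cutting its polymers. In the root epidermis of Arabidopsis, EXPA7 and EXPA18 are known as genes of the hair-forming cells (trichoblasts), where they are switched on as the hair bulge appears, and their expression depends on the root hair regulator RHD6. They are widely used as markers of that cell type. The array reads RNA of whole roots, so fewer hair cells and less of the transcript per hair cell cannot be told apart.

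Root RNA was hybridised to ATH1 arrays, 1 array per RNA sample, each sample pooled from 20 plants. The wild type, whose ecotype is given in the labels as a control, was compared with 1 transgenic line in the C24 background that strongly expresses ANR1, a MADS-box regulator of root growth, fused to the rat glucocorticoid receptor under the 35S promoter, which is active in most tissues. Such a fusion stays outside the nucleus until a steroid is given. All plants, controls included, were starved of nitrogen for 2 days and moved, after 9 days, for 1 h to plates with 0 or 1 µM dexamethasone. There were 2 arrays of untreated wild type, 2 of treated wild type, 2 of the untreated line and 1 of the treated line, the last in replicate 2. The labels do not settle whether wild type and line share a background, and a single line was used. The labels call replicate 1 and replicate 2 biological replicates. The array titles also carry a code that is shared within a replicate and differs between the replicates. What this code stands for is not given, so a replicate and a separate set of arrays cannot be told apart. P-values therefore measure the spread between these samples.

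Signals were on a linear scale with a trimmed mean of 100 on each array, and precision is limited by how few arrays there were. Arrays with the same replicate number correlated at 0.958 to 0.988 over the 10183 tested probe sets, and arrays with different numbers at 0.911 to 0.962. The 3'/5' signal ratio of the actin control, which rises as RNA is degraded, ran from 0.251 to 0.528 in replicate 1. In replicate 2 it was 0.346 in the untreated wild type, 0.388 in the treated line, 0.876 in the treated wild type and 1.59 in the untreated line. Of 7 trichoblast markers listed, the annotation held EXPA7 and EXPA18 alone, so the hair cell content of the samples could not be checked with other markers of that list. The 2 listed cortex genes were read, AT1G09750 at 86.8 to 157.5 and AT1G62500 at 12.9 to 45.0. Of the 13 genes of green tissue, 3 regulators of stomatal development were read, SPCH and MUTE at 2.0 or less and FAMA at 7.8 to 15.0. No gene of the lists for non-hair epidermis (3 genes), endodermis (8), stele (7), root cap (3) or meristem (2) had a probe set of its own in the annotation.

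In replicate 1 the EXPA7 signal was 112.6 in the untreated wild type, 127.6 in the treated wild type and 126.6 in the untreated line. In replicate 2 it was 65.0 in the untreated wild type, 38.2 in the treated wild type, 27.0 in the untreated line and 86.6 in the treated line. All 4 arrays of replicate 2 were thus below all 3 arrays of replicate 1, and the highest array of all was 4.73 times the lowest. The replicate 1 arrays lay close together, while those of replicate 2 spread 3.21-fold.

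EXPA18 behaved differently. Its signal in replicate 1 was 193.6 in the untreated wild type, 177.4 in the treated wild type and 179.1 in the untreated line. In replicate 2 it was 307.1 and 313.1 in the untreated and treated wild type, and 194.1 and 200.1 in the untreated and treated line. The 2 wild type arrays of replicate 2 stood above the 5 other arrays, which lay between 177.4 and 200.1. This arrangement was seen in 532 of the 10183 tested probe sets, or 5.22%.

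**Figure D1:**
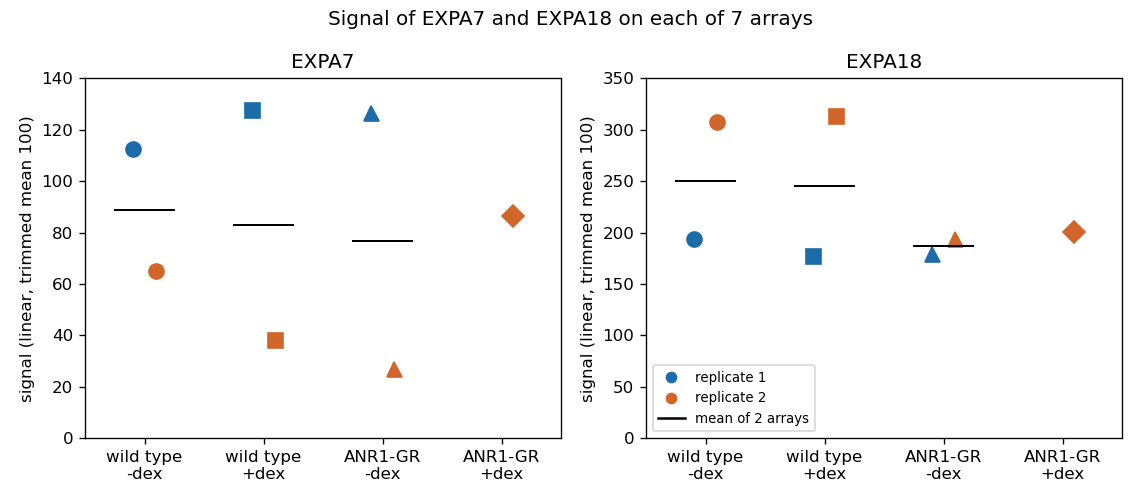
Signal (linear scale, trimmed mean of 100 per array) of EXPA7 and EXPA18 on each array, by line and dexamethasone (dex), with replicate 1 in blue and replicate 2 in orange; black lines are means of 2 arrays. EXPA7 is at 86.6 or less on every replicate 2 array and at 112.6 or more on every replicate 1 array, while EXPA18 reaches 307.1 and 313.1 in the replicate 2 wild type and 200.1 at most elsewhere.

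The study set out to compare lines and treatments, but the difference that stood out for EXPA7 was between the replicates. EXPA7 fell in replicate 2, from a mean signal of 122.3 ± 8.39 (SD, n = 3) to 54.2 ± 26.8 (SD, n = 4). The log2 difference, with the 4 groups held equal, was -1.27 ± 0.20 (SE), with an adjusted p of 0.00940 by limma. The 3 groups present in both replicates had log2 differences of -0.67 (untreated wild type), -1.41 (treated wild type) and -1.73 (untreated line). The treated line has no array in replicate 1 and adds nothing to this estimate.

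The fall of EXPA7 was one of many such differences. By the same test 16.7% of the 10183 probe sets passed, 9.17% as lower and 7.55% as higher in replicate 2, and in 19.8% all replicate 2 arrays lay below all replicate 1 arrays. Within replicate 2 the arrays with the higher actin 3'/5' ratios, 0.876 and 1.59, had the lower EXPA7 signals, 38.2 and 27.0. Those with 0.346 and 0.388 gave 65.0 and 86.6. The untreated wild type had a ratio of 0.528 with a signal of 112.6 in replicate 1, and 0.346 with 65.0 in replicate 2. When the fit also held each array's mean log2 3'/5' ratio over 3 controls (actin, GAPDH and ubiquitin), the fall was -0.67 ± 0.17 (SE), with an adjusted p of 0.0243 by limma, in a fit with 1 residual degree of freedom. The part of RNA degradation in the fall of EXPA7 was not tested. The call between the replicates was lost when dim probe sets were also tested (-1.27, adjusted p of 0.0571 by limma). EXPA7 is itself dim. Its mean signal was 83.4, so it was not tested where a mean of at least 100 was required. Its signals of 38.2 and 27.0 came from arrays with median signals of 36.6 and 37.4.

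Of the 2 cortex genes only AT1G09750 was tested, and it gave no call between the replicates. The summed signal of both genes ran from 163.9 to 194.7 over replicate 1 and from 99.7 to 157.6 over replicate 2. AT1G62500 alone read 34.4 to 45.0 in replicate 1 and 12.9 to 27.4 in replicate 2. AT1G09750, which encodes an aspartyl protease, differed by -0.41 ± 0.16 (SE) on the log2 scale (adjusted p = 0.114, limma), with 129.8 and 130.2 in the untreated wild type of replicates 1 and 2, and AT1G62500 was too dim to be tested. The part of tissue composition in the fall of EXPA7 was not tested.

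EXPA18 averaged 183.4 ± 8.90 (SD, n = 3) in replicate 1 and 253.6 ± 65.3 (SD, n = 4) in replicate 2. All 4 replicate 2 arrays lay above the replicate 1 arrays, as for 16.8% of probe sets, but the margin between the untreated line of replicate 2 (194.1) and the untreated wild type of replicate 1 (193.6) was small. The log2 difference was 0.50 ± 0.15 (SE), with a 95% interval of 0.14 to 0.86 and an adjusted p of 0.0617 by limma, just short of the threshold of 0.05. By group it was 0.62 in the untreated wild type, 0.77 in the treated wild type and 0.11 in the untreated line. In this model, leaving out either array of a group removes the whole group from the estimate. Both values so obtained for a group are thus the same check. EXPA18 did pass without either array of the untreated line, at 0.70 in both cases, with adjusted p of 0.0218 without the replicate 1 array and 0.0235 without the replicate 2 array. It also passed with the arrays centred on their medians (0.56, adjusted p of 0.0433) and with the 3'/5' ratio in the fit (0.74, adjusted p of 0.0244). It did not pass without either array of the treated wild type, at 0.37 with adjusted p of 0.451 (replicate 1 left out) and 0.455 (replicate 2 left out), nor without either array of the untreated wild type, at 0.44 with adjusted p of 0.0748 and 0.0754.

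Whether the replicate difference was larger in the wild type than in the line was asked after these values had been seen. The model took the effect of dexamethasone as equal in wild type and line. For EXPA18 the log2 difference was larger in wild type roots, by 0.56 ± 0.24 (SE), with a 95% interval of -0.023 to 1.14. The adjusted p was 1.00 by limma and the unadjusted p was 0.0573. For EXPA7 the corresponding value was 0.20 ± 0.64 (SE), with an adjusted p of 1.00, and it turned to -0.77 when the replicate 2 array of the untreated line was left out and to -0.22 when that of the untreated wild type was. Among all probe sets 0.00% passed this test and 159 had an unadjusted p under 0.05.

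The pair was then set side by side, array by array. On the log2 scale, EXPA18 minus EXPA7 ran from 0.43 to 0.70 over replicate 1 and from 1.07 to 2.60 over replicate 2, with no overlap, and the mean of this difference was 1.46 higher in replicate 2. The lack of overlap follows from EXPA7 being lower and EXPA18 higher on every replicate 2 array, and is no further result. Because the arrays fall into separate sets by replicate, with 3 and 4 arrays, no pooled correlation was read. With the mean of each replicate subtracted, a calculation added after the values were seen, Pearson's r over the 7 arrays was 0.0070 (exact permutation within replicates, two-sided p = 0.972) and Spearman's rho was -0.036 (p = 0.944, same exact test). Pearson's r was -0.13 without the 2 arrays of the line in replicate 2, the farthest from the median of EXPA7. No relation was detectable with so few arrays. Within replicate 1 the order was opposite. The array with the highest EXPA7 signal, the treated wild type, had the lowest EXPA18 signal. The array with the lowest EXPA7 signal, the untreated wild type, had the highest EXPA18 signal. These differences were small. Within replicate 2 the arrays with the lowest (27.0) and the highest (86.6) EXPA7 signals, both of the line, had EXPA18 signals of 194.1 and 200.1.

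**Figure D2:**
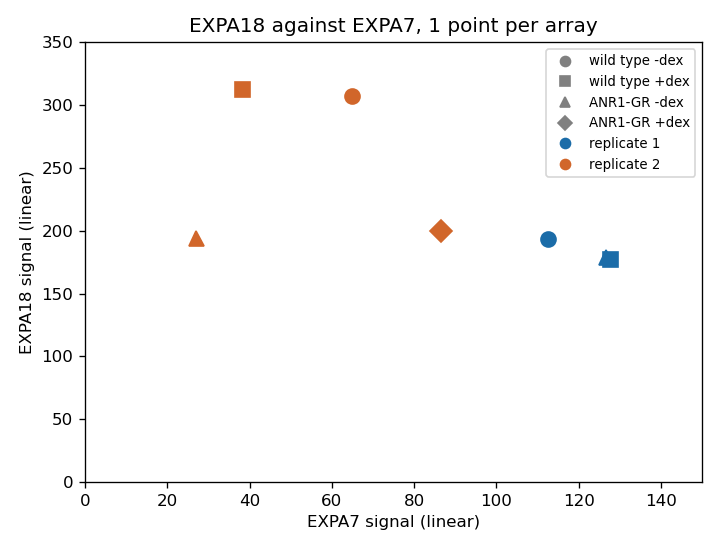
EXPA18 signal (vertical axis) against EXPA7 signal (horizontal axis), both linear, with 1 point per array; colour gives the replicate and shape the group. Replicate 1 forms a tight set at EXPA7 signals of 112.6 to 127.6, while in replicate 2 the wild type and the line separate along the EXPA18 axis.

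**Figure D3:**
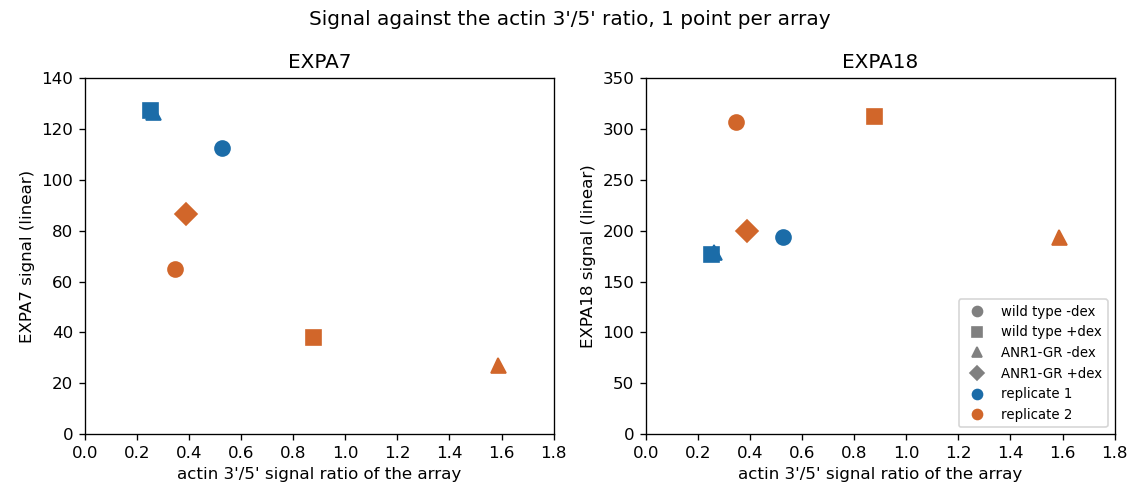
Signal of EXPA7 (left) and EXPA18 (right) against the actin 3'/5' signal ratio of the same array, 1 point per array. The 2 arrays with ratios of 0.876 and 1.59 have the lowest EXPA7 signals (38.2 and 27.0), and their EXPA18 signals are 313.1 and 194.1.

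Line and wild type were compared irrespective of the steroid. Effects of the transgene, of a possible difference in background and of this single line cannot be told apart here. The line averaged an EXPA18 signal of 191.1 ± 10.8 (SD, n = 3), the wild type one of 247.8 ± 72.3 (SD, n = 4), and the groups overlapped. The log2 difference was -0.31 ± 0.23 (SE), with a 95% interval of -0.84 to 0.23 and an adjusted p of 1.00 by limma. Within replicate 1 it was -0.045 and within replicate 2 -0.61. With the replicate number as a block it was -0.40 ± 0.14 (SE), with an unadjusted p of 0.0223 and an adjusted p of 1.00, so the call was the same. EXPA7 stood at 80.1 ± 50.1 (SD, n = 3) in the line, against 85.8 ± 41.5 (SD, n = 4) for wild type roots. Its log2 difference was -0.14 ± 0.49 (SE), with a 95% interval of -1.29 to 1.00, and 0.080 with the block. Its sign also turned without the untreated line of replicate 2, where the value was 0.35. Neither gene passed, and 0.00% of probe sets did by limma, with 55 (0.540%) at an unadjusted p under 0.05. With the block 0.00982% passed, in the higher direction, and 1.59% had an unadjusted p under 0.05.

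Without dexamethasone, before nuclear entry of the fusion was induced, EXPA18 averaged 186.6 ± 10.6 (SD, n = 2) in the line, against 250.3 ± 80.3 (SD, n = 2) for wild type roots. The log2 difference was -0.36 ± 0.32 (SE), made up of -0.10 within replicate 1 and -0.62 within replicate 2. EXPA7 averaged 76.8 ± 70.4 (SD, n = 2) in the line, against 88.8 ± 33.7 (SD, n = 2) for wild type roots, and differed by -0.38 ± 0.68 (SE) on the log2 scale. It was 0.15 within replicate 1 and -0.91 within replicate 2, and 0.48 without the untreated line of replicate 2, where the line kept its replicate 1 array only. With the 3'/5' ratio in the fit it was 0.046. Both adjusted p were 1.00 by limma, with 0.00% of probe sets called and 41 (0.403%) at an unadjusted p under 0.05, or 3.74% with the block.

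Wild type roots with and without dexamethasone show what the steroid does in the absence of the fusion. For EXPA18 the arrays overlapped, with a log2 difference of -0.045 ± 0.32 (SE), -0.12 within replicate 1 and 0.027 within replicate 2. The 95% interval was -0.83 to 0.74, which leaves room for changes in either direction. EXPA7 stood at -0.21 ± 0.68 (SE), with a 95% interval of -1.86 to 1.44. It was 0.16 within replicate 1 and -0.58 within replicate 2, where the signal was 65.0 without and 38.2 with the steroid. The sign turned without the treated wild type of replicate 2, where the value was 0.49 and the treated group kept its replicate 1 array only. The adjusted p of both genes was 1.00 by limma, with 0.00% of probe sets called and 19 (0.187%) at an unadjusted p under 0.05, or 1.13% with the block.

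Dexamethasone in the line addressed the induced fusion protein. The only treated line array, of replicate 2, gave an EXPA7 signal of 86.6, against 27.0 in the untreated line of the same replicate and 126.6 in that of replicate 1. The treated value thus lay between the untreated ones. The fit without the block sets it against the mean of both, so its estimate also holds part of the replicate difference. The log2 difference was 0.39 ± 0.83 (SE), with a 95% interval of -1.63 to 2.41 and an adjusted p of 1.00 by limma. Within replicate 2 it was 1.25, and 1.71% of probe sets were higher by a log2 difference of at least 1 in that pair of arrays. With the replicate block it was 1.02 ± 0.31 (SE), with an unadjusted p of 0.0123 and an adjusted p of 0.806 by limma; in that fit 5.92% of probe sets had an unadjusted p under 0.05 and 0.00% were called.

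This value of EXPA7 depends on which untreated line array it is set against. Without the untreated line of replicate 2, the treated line is set against the replicate 1 array alone, and the difference was -0.47. There dexamethasone and replicate cannot be told apart. With the 3'/5' ratio in the fit the difference was -0.11. EXPA18 in the line read 200.1 with the steroid and 194.1 and 179.1 without it, a narrow range. Its log2 difference was 0.094 ± 0.40 (SE), with a 95% interval of -0.87 to 1.06, and -0.16 with the block. In this comparison 0.00% of probe sets were called and 54 (0.530%) had an unadjusted p under 0.05.

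Subtracting the wild type's response to dexamethasone from the line's gave 0.60 ± 1.07 (SE) for EXPA7, with a 95% interval of -2.01 to 3.21. Within replicate 2 it was 1.83, since EXPA7 was higher with the steroid in the line and lower with it in the wild type, and 5.95% of probe sets reached at least 1 there. With the block it was 1.23 ± 0.39 (SE), with an adjusted p of 0.688 by limma, where 7.08% of probe sets had an unadjusted p under 0.05. Without the untreated line of replicate 2 it was -0.26, and without the treated wild type of replicate 2 it was -0.10. Both values also hold part of the replicate difference, since a compared group then kept its replicate 1 array only. For EXPA18 the difference of the responses was 0.14 ± 0.51 (SE), and 0.014 within replicate 2. Neither gene passed, with adjusted p of 1.00 by limma without the block. In this comparison 0.00% of probe sets were called and 76 (0.746%) had an unadjusted p under 0.05.

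With dexamethasone in both, the treated line of replicate 2 had an EXPA7 signal of 86.6 and the treated wild type arrays 38.2 and 127.6. The log2 difference was 0.22 ± 0.83 (SE), 0.92 within replicate 2 and 0.85 with the block, with adjusted p of 1.00 and 0.991 by limma. Without the treated wild type of replicate 2 it was -0.49. For EXPA18 the values were 200.1 against 313.1 and 177.4, a log2 difference of -0.22 ± 0.40 (SE). Within replicate 2 it was -0.61, with the block -0.47, and without the treated wild type of replicate 2 it was 0.16. Leaving that array out sets the line against replicate 1 alone, so for both genes line and replicate cannot then be told apart. Here 0.00% of probe sets were called and 41 (0.403%) had an unadjusted p under 0.05, or 3.79% with the block.

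**Figure D4:**
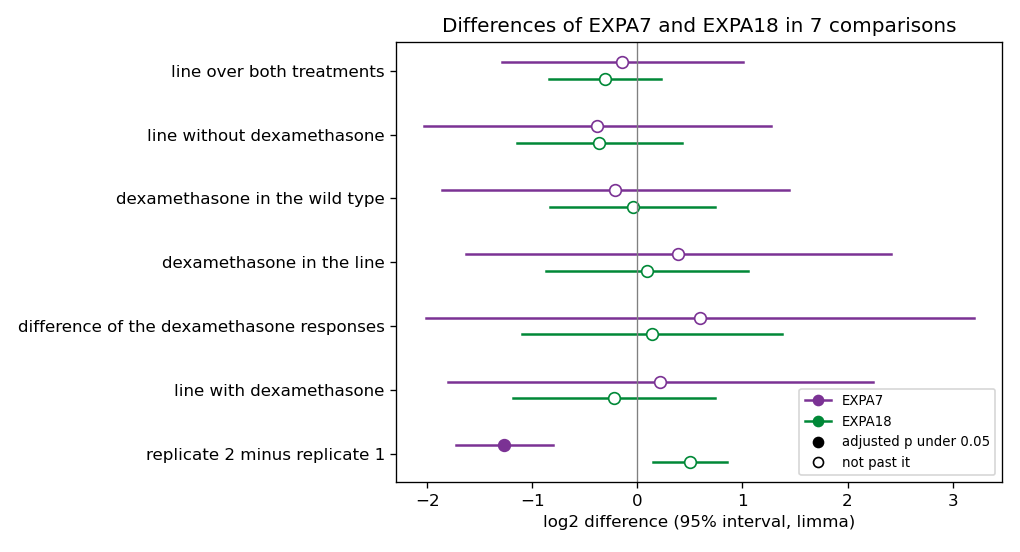
Log2 differences of EXPA7 (purple) and EXPA18 (green) in 7 comparisons, with 95% intervals from limma; filled points have an adjusted p under 0.05. The replicate difference of EXPA7 (-1.27) is the only filled point, and the interval of EXPA18 in that row (0.14 to 0.86) lies above 0. The rows of line and dexamethasone come from fits without the replicate block.

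The rest of the expansin family was set beside the pair. Of 36 listed expansin genes, 18 had a probe set of their own and 9 had a mean signal of at least 50, the level required for testing. Beside EXPA7 and EXPA18 these were the alpha-expansins EXPA4, EXPA9 and EXPA15, the beta-expansins EXPB1 and EXPB3, and the expansin-like genes EXLA1 and EXLB1. A further 2 probe sets read several alpha-expansins each and were not used.

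Of the 9 tested, 2 passed for the replicate difference, EXPA7 as lower and EXLB1 as higher, where 16.7% of all probe sets passed. EXLB1 had signals of 94.4, 112.8 and 136.7 in replicate 1 and 199.3 to 276.8 in replicate 2, and differed by 0.99 ± 0.11 (SE) on the log2 scale (adjusted p = 0.00391, limma). The other alpha-expansins EXPA4 (-0.39), EXPA9 (-0.37) and EXPA15 (-0.31) and the beta-expansin EXPB3 (-0.57) had negative differences that did not pass. The median of the 9 was -0.31, against -0.020 over all 10183 probe sets. In the 6 comparisons of line and dexamethasone 0 of the 9 passed, with adjusted p of 1.00 in each by limma, as 0.00% of all probe sets did.

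The lowest EXPA7 signal came from the replicate 2 array of the untreated line, which also had the highest 3'/5' ratio. It was also the lowest of the 7 arrays for 4 of the other 7 tested expansins, and for 24.0% of all tested probe sets. EXPA4 read 94.3 there and 186.7 to 417.5 elsewhere. EXPB3 read 145.1 there and 308.1 to 503.9 elsewhere. EXPA15 read 102.2 there and 203.6 to 233.7 elsewhere, while EXPA9 read 84.4 there and 100.7 to 157.7 elsewhere. EXPA18 was not among them, at 194.1 within a range of 177.4 to 313.1, and EXLA1 had its highest signal on that array (471.0, against 287.8 to 372.9 elsewhere).

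With dexamethasone in the line, 8 of the 9 had a positive log2 difference, against 50.3% of all probe sets, with a median of 0.37 against 0.0014. The count depends on the untreated line of replicate 2, lowest of the 7 arrays for 5 of the 9. Without it 5 of the 9 were positive, against 48.9% of all probe sets, and the median was 0.0078. The treated line of replicate 2 is then set against replicate 1 alone, so dexamethasone and replicate cannot be told apart. With both untreated arrays EXPA4 had the highest difference, at 0.91 ± 0.62 (SE), followed by EXPB3 at 0.61 ± 0.65 (SE). These values are set against the same untreated line arrays, and none passed.

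**Figure D5:**
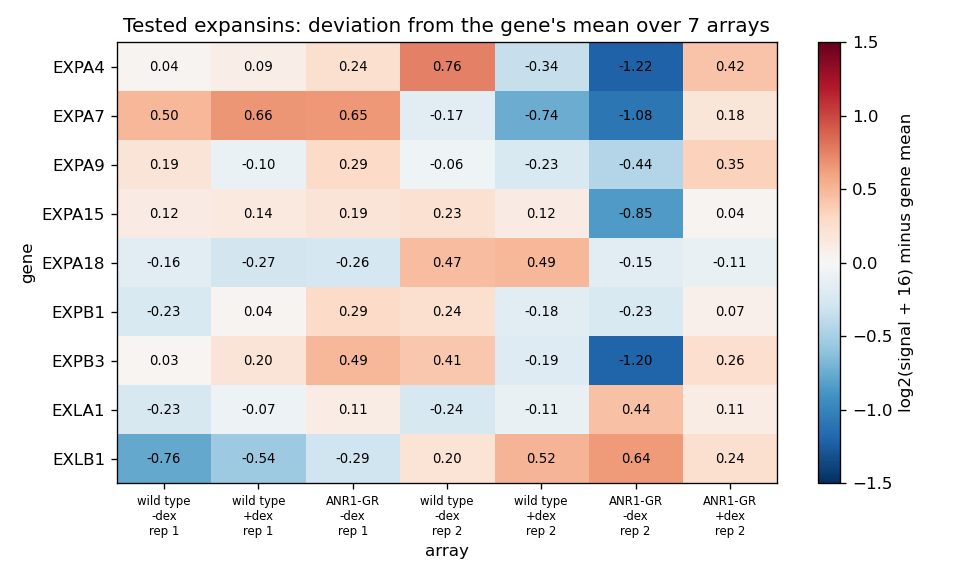
Deviation of each tested expansin from its own mean over the 7 arrays, in log2(signal + 16), with genes as rows and arrays as columns; red is above and blue below the mean. EXPA7 is above its mean throughout replicate 1, EXLB1 is above its mean throughout replicate 2, and EXPA4, EXPA7, EXPA9, EXPA15 and EXPB3 are lowest in the untreated line of replicate 2.

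Other root hair genes could be followed only in part. Of 45 listed genes 4 had a probe set of their own and 2 were bright enough to test. FER, a receptor kinase that root hairs need to keep their integrity, had signals of 581.7 to 685.1 and differed between the replicates by 0.073 ± 0.11 (SE) on the log2 scale (adjusted p = 0.688, limma). RSL3, a bHLH regulator of hair growth, and XTH26, a xyloglucan-modifying enzyme, were dim, with 19.1 or less and 4.6 or less. Of 14 genes of epidermal cell fate, 2 were read and neither was tested: TRY, a small MYB protein that represses trichome fate, at 3.4 to 8.8, and JKD, a zinc finger protein that acts in epidermal patterning, at 4.3 to 51.2. Between the replicates both tested root hair genes had positive log2 differences, with a median of 0.20. In all, 0 of the 2 passed in any comparison, where 16.7% of all probe sets passed between the replicates and 0.00% in the others, so the count says nothing particular of root hair genes.

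Genes with the pattern most like each member were sought among 5288 other tested probe sets with 1 gene, by Pearson's r of log2 signals over the 7 arrays. This is a description, and the arrays share the replicate difference. For EXPA7 the 5 highest r were 0.996 to 0.997, for AT5G49280, AT5G04550, GER2 (an enzyme of GDP-fucose synthesis), WRKY6 (a WRKY transcription factor) and SRC2. AT5G49280 read 271.5, 288.6 and 287.9 in replicate 1, in the order untreated wild type, treated wild type and untreated line. In replicate 2 it read 150.7 in the untreated wild type, 93.4 in the treated wild type, 77.3 in the untreated line and 192.8 in the treated line, the same order as EXPA7.

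With the mean of each replicate subtracted, these 5 had r of 0.988 to 0.998 with EXPA7, and -0.037 to 0.14 with EXPA18. They were picked for a high r with EXPA7 over the same arrays, so the former values are no separate check. For EXPA18 the 5 highest r were 0.927 to 0.948, for AT5G58740, AT1G72820, AT5G44020, AT1G70160 and AT4G17100. AT5G58740 read 494.4 and 489.6 in the replicate 2 wild type and 406.9 to 447.0 on the other arrays.

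The gene most like both members at once, by the mean of its 2 r after the replicate means were subtracted, was AT3G15680, at 0.706. Then came MMP (AT1G70170), AT5G04520, AT3G58470 and, at 0.694, the alpha-expansin EXPA15. EXPA15 had r of 0.698 with EXPA7 and 0.690 with EXPA18 on that measure. Each of these genes had its lowest signal on the untreated line of replicate 2, as did 24.0% of all tested probe sets. EXPA15 read 102.2 there and 203.6 to 233.7 elsewhere, so its likeness rests largely on that array, which had the highest 3'/5' ratio.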

How the data were processed

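The deposited table holds linear intensity signals of 22810 probe sets on 7 arrays, each array scaled by the authors, since its 2% trimmed mean is 100. The summarising software is not given in the sources used here, and detection calls were not used here. Scanner background in the labels ran from 62.9 to 85.2. Without the 64 controls, 10183 probe sets averaging at least 50 over the arrays were tested on log2(signal + 16), which understates changes of dim probe sets, with limma 3.58.1 in R 4.3.3 (lmFit, eBayes with a trend, two-sided, Benjamini-Hochberg threshold 0.05). Groups came from the labels. The line was tested in a model with line and dexamethasone, and the replicates in a model with group and replicate. The other contrasts of line and dexamethasone came from a 4-group model. The spread of the single treated line array was taken from the other groups. The comparison of replicate differences between wild type and line was added after the values were seen. Its model held line, replicate, dexamethasone and line by replicate, with the dexamethasone effect taken as equal in line and wild type. For the other comparisons, mean limma estimates were checked against known changes in simulated data with independent noise. The fits with the 3'/5' ratio, the correlations and the comparison of replicate differences between wild type and line were not part of that check.

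Gene names came from the platform annotation, with 13513 probe sets of 1 gene, 503 of several and 8794 not listed. Of those with 1 gene, 13436 matched a RefSeq gene (TAIR10.1) by gene ID. Members and lists were chosen with earlier results of these data known. Named genes were the members, list genes past the threshold (otherwise the brightest), and the 5 most like each member or both; EXLA1 and the dimmer list genes were named after their values were seen. The values of 1 tested root hair gene are not reported here.

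The replicate numbers come from the labels. Deviations from the group means correlated over probe sets at 0.622, 0.472 and 0.826 between the groups with 2 arrays, so arrays of a replicate number shifted together. The main fits of line and dexamethasone held no replicate term, so their SE and p include this shift. For EXPA7 in the line without dexamethasone the SE was 0.68, against 0.24 with replicate as a block. The fit with this block was an alternative. Others were quantile and median scaling, 1 or 64 added before the log, other filters, no trend, fewer arrays and the 3'/5' ratio.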

Additional observations from a re-analysis of the deposited data

How the results depend on the processing

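Over 384 alternative values, 336 kept their direction and side of the threshold (counts: stayed within 1.5 times), and the cause of the others was not tested unless arrays or probe sets were removed. This count does not measure stability. Many alternatives could not change an estimate, such as leaving out an array of a group not compared. For line and dexamethasone the adjusted p lay far above the threshold, so its side could hardly change. No member passed a comparison of line or dexamethasone under any alternative run. With the replicate block, EXPA7 turned to 0.080 for the line over both treatments, and EXPA18 to -0.16 for dexamethasone in the line and -0.11 for the difference of the responses; the block changed no call of a member, and 1 probe set was called for the line over both treatments where there had been 0. Once the fit held the 3'/5' ratio, EXPA7 turned to 0.022 (line over both treatments), 0.046 (line without dexamethasone), -0.11 (dexamethasone in the line), -0.056 (difference of the responses), -0.010 (line with dexamethasone) and -0.41 (replicate difference in the wild type minus in the line), EXPA18 passed between the replicates (0.74), and 1 probe set was called for the line over both treatments and 1 for the line without dexamethasone. For the line over both treatments 1 probe set was also called with median centring, with 1 added before the log and with a mean signal of at least 100, and for the line with dexamethasone 1 with only the groups compared. Between the replicates, EXPA18 passed with median centring (0.56). With no filter EXPA7 did not pass (-1.27) and 423 probe sets were called, not 1703.

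Leaving out 1 array at a time, EXPA7 ran from -0.51 to 0.35 for the line over both treatments, -1.25 to 0.48 for the line without dexamethasone, -0.91 to 0.49 for dexamethasone in the wild type, -0.47 to 1.25 for dexamethasone in the line, -0.26 to 1.46 for the difference of the responses, -0.49 to 0.92 for the line with dexamethasone, -1.57 to -1.04 between the replicates and -0.77 to 1.06 for the replicate difference in the wild type minus in the line. EXPA18 ran from -0.45 to -0.14 for the line over both treatments, -0.67 to -0.050 for the line without dexamethasone (-0.050 without the untreated wild type of replicate 2), -0.43 to 0.34 for dexamethasone in the wild type, -0.24 to 0.52 for the difference of the responses, -0.61 to 0.16 for the line with dexamethasone and 0.37 to 0.70 between the replicates. The probe sets called ran from 0 to 1 for the line over both treatments, without dexamethasone and with it, and from 301 to 3344 between the replicates: 301 and 314 without the treated wild type of replicate 1 or 2, 3344 and 3338 without the untreated wild type, and 869 and 859 without the untreated line. The mean of EXPA18 minus EXPA7 was higher in replicate 2 by 1.02 to 1.77 under all alternatives run. In the comparisons of line and dexamethasone, leaving out an array can leave the replicates unequal between the groups. Those ranges thus also hold part of the replicate difference. The treated line has 1 array, so its own spread is not known.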
